A study of Mus musculus with 10 samples.

Results

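T cell receptor β chains built from TRBV26, TRBV30 and TRBV31, 3 variable (V) segments from the downstream end of the mouse β locus, are described here in T cells of mouse skin and lymph node. The members are the clonotypes that the deposited tables assign to these segments: 2242 of the 29481 clonotypes in 9 β chain (TRB) libraries, of which 519 used TRBV26, 101 TRBV30 and 1622 TRBV31. Of these, 2022 came from lymph node and 220 from the 8 skin libraries. A clonotype is a V segment, a joining (J) segment and a nucleotide CDR3, the hypervariable junction of the chain where V, D and J meet. The series lists 26 TRBV segments in all.

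The study asked which αβ T cells fill the skin when γδ T cells are missing. Cells came from B6.129P2-Tcrdtm1Mom/J mice (Tcrd-/-), which lack the T cell receptor δ chain in all cells, and from C57BL/6-N/Crl wild-type (WT) mice. Epidermal Tcrd-/- cells (3 libraries, A, B and C) were sorted from ear skin by high CD3 and high TCRβ. Dermal Tcrd-/- cells (2 libraries, A and B), WT dermal cells and Tcrd-/- peripheral lymph node cells (1 library each) were sorted as CD45+ CD3+ TCRβ+ cells. A CD103+ and a CD103hi dermal Tcrd-/- library had a further gate on CD103, the integrin αE chain of many epithelial T cells. The labels give no ages. Each library pooled cells of 5 to 18 animals, so no value for a single animal exists. The labels do not tell whether libraries of a group came from separate animals, and p-values measure only the spread between libraries. The TRB libraries held 31823 to 189162 reads. Skin libraries listed 72 to 702 clonotypes and the lymph node library 26693. The library names in the labels form 3 sets, with the A libraries and lymph node in 1 set, epidermal B and both CD103 sorts in another, and epidermal C, dermal B and WT dermis in the last. T cell identity rests on the sort, since no marker transcript was measured.

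A β chain is assembled from a V, a diversity (D) and a J segment by the RAG recombinase. A D segment joins a J segment first, and a V segment is then added. The locus has 2 D-J clusters, each with a D segment upstream of its J segments and a constant gene, so TRBD1 can join J segments of either cluster while TRBD2 lies downstream of the TRBJ1 cluster. Exonucleases trim the segment ends and terminal transferase (TdT) inserts untemplated nucleotides, so junctions without inserted nucleotides read out the germline. Most V segments join by deleting the DNA in between. TRBV31 lies beyond the last constant gene in the opposite orientation and joins by inverting the DNA in between.

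In the GRCm38 annotation, TRBV26 (ENSMUSG00000076479.3) lies on chromosome 6 from 41227505 to 41227993 and TRBV30 (ENSMUSG00000076481.7) from 41281376 to 41281990, both on the forward strand. TRBD1 follows from 41533201 to 41533212, 251211 bases past TRBV30. TRBD2 lies from 41542163 to 41542176, and TRBC2, the constant gene of the second cluster, from 41546730 to 41548352. TRBV31 (ENSMUSG00000076499.3) lies from 41557691 to 41558452 on the reverse strand, 9339 bases past TRBC2 and 13835 bases past TRBJ2-7. The germline bases that each segment can give to a CDR3 follow, since the trimming results rest on them. They run from the conserved cysteine codon to the end of the coding sequence in the GENCODE transcripts of this build. TRBV31 has 2 annotated ends, and the shorter is used.
TRBV26: tgtgccagcagtctgtc
TRBV30: tgtagttctagaga
TRBV31: tgtgcctggagtct
TRBD1: gggacagggggc
TRBD2: gggactgggggggc

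The largest clone among the members of each skin library that held one at 1% of reads or more shows what these junctions look like. Lower case marks bases that match the germline V or J end, and capitals mark the bases between these matches, which hold the D segment and any inserted nucleotides.
Epidermal A, TRBV26 and TRBJ1-3: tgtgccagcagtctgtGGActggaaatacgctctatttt
Epidermal B, TRBV26 and TRBJ2-1: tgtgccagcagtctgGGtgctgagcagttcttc
Dermal A, TRBV26 and TRBJ2-3: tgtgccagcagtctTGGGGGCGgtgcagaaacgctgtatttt
Dermal B, TRBV26 and TRBJ2-1: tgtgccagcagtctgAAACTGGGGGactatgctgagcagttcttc
CD103+ dermal, TRBV26 and TRBJ1-2: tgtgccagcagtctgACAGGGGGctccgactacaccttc
CD103hi dermal, TRBV31 and TRBJ2-5: tgtgcctggagtcaagacacccagtacttt

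TRBV26 supplied the leading clone in 5 of these 6 libraries. The epidermal A clone took 4.53% of reads and was the third largest clone of its library. Its V end kept 16 of 17 germline bases, and the 3 bases between V and J were found in a D segment, without a D call in the deposited table. The epidermal B clone took 2.95%, and only 2 bases lay between V and J. The dermal A clone took 1.55% and the dermal B clone 5.38%. The CD103+ clone took 2.07% and held 8 bases of TRBD1 with no inserted nucleotide. The CD103hi clone used TRBV31 and took 1.95%. Its V and J ends overlapped by 1 base, so no base of a D segment or of insertion could be assigned.

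These clones held most reads of their segment in several libraries. The leading clone held 82.1% of TRBV26 reads in epidermal A, 98.4% in dermal A and 54.1% in dermal B. TRBV26 had only 9, 6 and 4 clonotypes there, and other single segments were not set beside it. In WT dermis the leading TRBV26 clone held 24.1% of TRBV26 reads and 0.506% of all reads. The leading WT TRBV31 clone took 0.707% of all reads. In lymph node no member exceeded 10 reads. Its largest TRBV26 clone had 10 reads, its largest TRBV30 clone 6 and its largest TRBV31 clone 9, the last shared by 2 clonotypes. Their junctions held matches of 9, 8 and 9 bases to a D segment between the germline ends.
Lymph node, TRBV26 and TRBJ1-2: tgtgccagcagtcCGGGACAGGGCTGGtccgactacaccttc
Lymph node, TRBV30 and TRBJ2-5: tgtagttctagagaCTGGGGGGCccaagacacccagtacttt
Lymph node, TRBV31 and TRBJ2-1: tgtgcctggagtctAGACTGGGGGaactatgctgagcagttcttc

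In all, 14 member clonotypes reached 1% of reads in a skin library, of 201 such clonotypes of any TRBV segment. Members made up 2.78% (epidermal C) to 11.5% (dermal A) of all clonotypes in the single skin libraries. Whether members reached 1% more or less often than other segments was not tested. TRBV26 gave 8, TRBV30 3 and TRBV31 3. All 3 TRBV30 clones were in epidermal A, and they are shown with the TRBV31 clones of epidermal A and dermal A. These 5 were chosen after their values were seen, since they show the other segments' large junctions.
Epidermal A, TRBV30 and TRBJ2-2: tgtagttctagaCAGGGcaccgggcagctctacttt
Epidermal A, TRBV30 and TRBJ1-2: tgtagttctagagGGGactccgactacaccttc
Epidermal A, TRBV30 and TRBJ2-1: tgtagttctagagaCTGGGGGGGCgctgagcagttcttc
Epidermal A, TRBV31 and TRBJ2-1: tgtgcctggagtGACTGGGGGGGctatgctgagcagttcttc
Dermal A, TRBV31 and TRBJ1-4: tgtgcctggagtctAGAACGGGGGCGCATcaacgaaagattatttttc

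The TRBV30 clones with TRBJ2-2, TRBJ1-2 and TRBJ2-1 took 3.05, 1.39 and 1.03% of epidermal A reads. By germline matches none of the 3 held an inserted base, while the deposited positions gave 3 inserted bases to the TRBJ1-2 clone and 0 to the others. The epidermal A TRBV31 clone (1.43%) carried 11 uninterrupted bases of TRBD2, also without an inserted nucleotide. The dermal A TRBV31 clone (1.45%) kept all 14 germline V bases. It held 15 bases between V and J, of which 9 matched no D segment (4 inserted bases by the deposited positions).

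TRBV26 was found in 8 of 9 libraries and ranged most widely by reads. Its read share was 5.52% in epidermal A, 5.25% in epidermal B, 0% in epidermal C, 1.57% in dermal A and 9.94% in dermal B. The CD103+ library had 5.42%, the CD103hi library 1.06%, WT dermis 2.10% and lymph node 1.74%. The highest share, in dermal B, came from only 4 clonotypes, and the epidermal and dermal values overlapped. Fewer cells of a kind and less β chain RNA per cell cannot be told apart in these libraries. By clonotypes it held 2.83, 2.53 and 0% of the 3 epidermal libraries, 2.55 and 5.19% of the dermal pair and 1.66% of lymph node. Among the other segments, TRBV12-1 and TRBV20 were closest in level, with mean absolute differences of 1.13 and 1.45 percentage points of clonotypes over the 9 libraries.

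TRBV31 was the most frequent of the 3 segments in lymph node. There it took 5.30% of reads (exact 95% interval 5.11 to 5.49%) and 5.68% of clonotypes (Wilson 95% interval 5.40 to 5.96%), and it ranked seventh of 25 TRBV segments by both. Epidermal A had 1.65% of reads, epidermal B 4.01% and epidermal C 0.00684%, dermal A 2.75% and dermal B 0%. It took 1.79% in the CD103+ library, 3.44% in the CD103hi library and 4.28% in WT dermis. Dermal B stood alone in listing no TRBV31 clonotype, and its 77 clonotypes gave a Wilson upper limit of 4.75% of clonotypes. A count of 0 reads allowed up to 0.00721% of its reads, taking 3 counts as the limit. Intervals and limits cover counting error only, because PCR reads are not independent molecules. The 3 TRBV31 reads of epidermal C fell in 2 clonotypes. Both occurred with the same nucleotides in WT dermis of the same library set, at 404 and 1180 reads. TRBV20 and TRBV4 were closest to TRBV31 in level, at 1.74 and 1.87 percentage points.

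**Figure D1:**
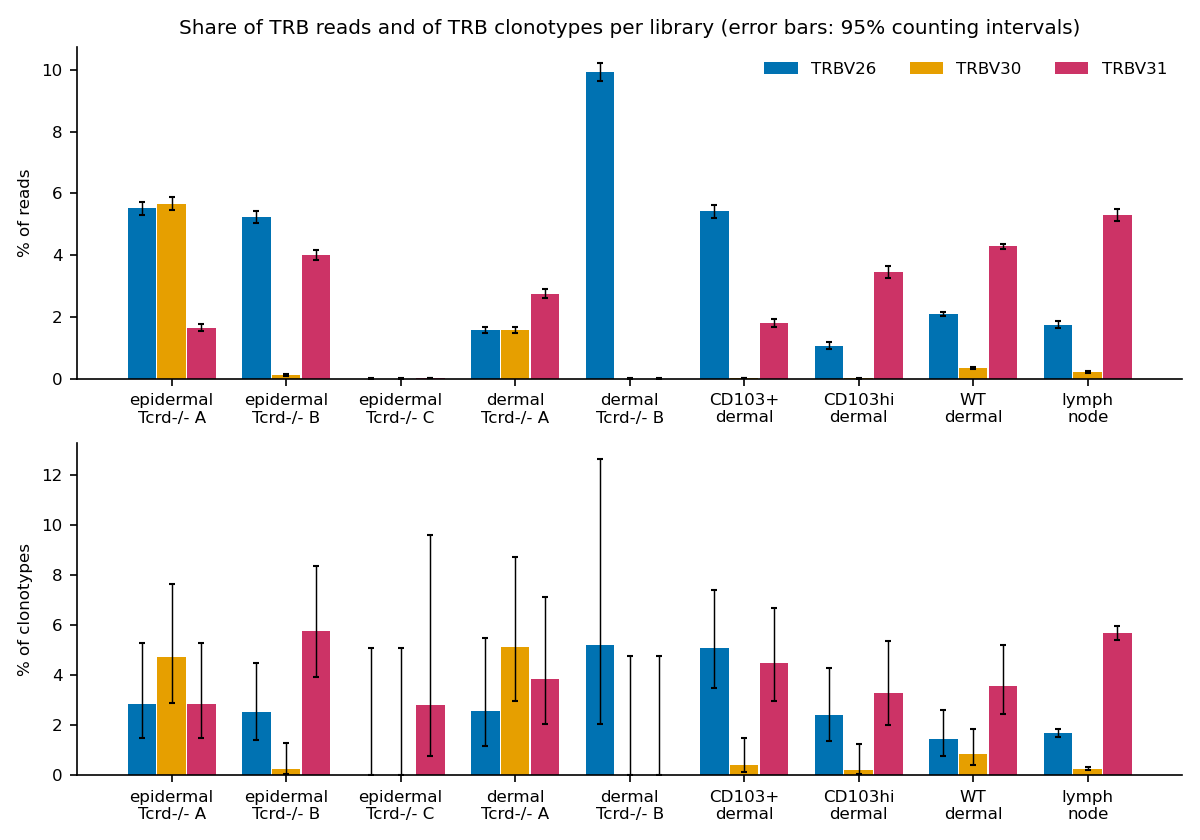
Share of TRB reads (top) and of TRB clonotypes (bottom), in percent, taken by TRBV26, TRBV30 and TRBV31 in each of the 9 libraries; error bars are 95% intervals for counting error (exact for reads, Wilson for clonotypes). TRBV26 reaches 9.94% of reads in dermal B, TRBV30 exceeds 2% of reads only in epidermal A, and TRBV31 has the largest read share of the 3 in lymph node, WT dermis, the CD103hi library, dermal A and, with 3 reads, epidermal C.

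By clonotypes, TRBV31 had a larger weight against TRBV26 and TRBV30 in lymph node than in the skin libraries that held either of them. In lymph node TRBV31 clonotypes outnumbered those of TRBV26 and TRBV30 together 2.99 to 1 (1515 against 507). The ratio was 0.375 in epidermal A, 2.08 in epidermal B, 0.5 in dermal A and 0 in dermal B. It was 0.815 in the CD103+ library, 1.25 in the CD103hi library and 1.56 in WT dermis. Every skin library for which this ratio could be formed lay below lymph node. Epidermal C, with 2 TRBV31 clonotypes and 0 of the others, gave no ratio. In dermal A, 11 of the 18 other clonotypes were TRBV30 calls without the germline start of that segment. By reads the order did not hold, with a ratio of 3.25 in the CD103hi library and 2.72 in lymph node. Lymph node is a single library, and the difference was not tested.

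TRBV30 was rare in all libraries but 2. Its read share was 5.66% in epidermal A, 0.103% in epidermal B, 0% in epidermal C, 1.58% in dermal A and 0% in dermal B. In the CD103+, CD103hi, WT dermal and lymph node libraries it took 0.00467, 0.00314, 0.340 and 0.208%. No other segment was close in level: the smallest mean absolute differences were those of TRBV21 and TRBV9, at 1.17 and 1.18 percentage points of clonotypes. Their mean shares were 0.143 and 0.130%, against 1.31% for TRBV30.

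Most clonotypes called TRBV30 in dermal A did not begin with TRBV30. In the first 9 CDR3 bases, 11 of its 12 TRBV30 clonotypes differed from the germline segment at 2 or more positions, with a median of 3. These 11 held 831 of the 834 reads, and 8 of them also differed from their called J segment within its last 12 CDR3 bases. They averaged 11.4 inserted nucleotides by the deposited positions. The one clonotype with a TRBV30 start had 3 reads, and the same nucleotide clonotype was far larger in epidermal A of the same library set. In epidermal A, 5 of 15 TRBV30 clonotypes lacked the start, with 16 reads against 2595 for the other 10. Among clonotypes of other TRBV segments with a germline reference, 2.99% in dermal A and 0.572% in lymph node lacked their germline start. In skin, 3 TRBV26 clonotypes and 0 TRBV31 clonotypes lacked it. The origin of the mismatched sequences was not tested, and they are not shown. The main tests that rest on them are given with and without them. Unless stated otherwise, segment levels, ratios, junction values of single libraries and counts from germline matches include them.

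**Figure D2:**
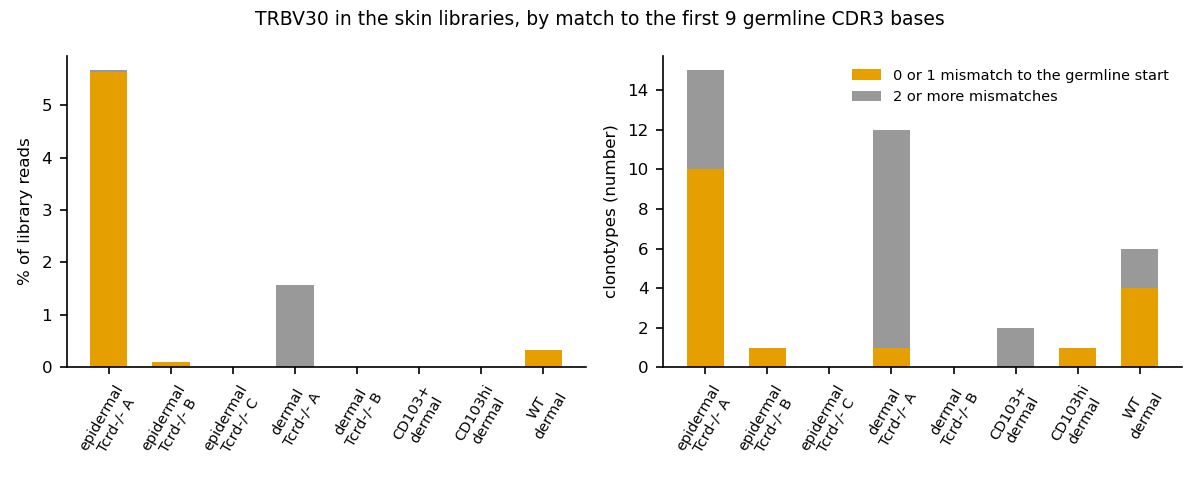
TRBV30 in the 8 skin libraries as a percentage of library reads (left) and as a number of clonotypes (right), split by whether the first 9 CDR3 bases match the germline segment (0 or 1 mismatch) or not (2 or more). Nearly all TRBV30 reads of epidermal A match, while 831 of 834 in dermal A do not.

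The test found no difference beyond the spread between libraries for any of the 3 segments, epidermal against dermal Tcrd-/-. By reads, TRBV26 averaged 3.59% ± 3.11 (SD, n = 3) over the epidermal and 5.76% ± 5.92 (SD, n = 2) over the dermal libraries, a log2 fold change of -0.68 (edgeR quasi-likelihood test, Benjamini-Hochberg adjusted p = 0.883). TRBV31 averaged 1.89% ± 2.01 (SD, n = 3) and 1.37% ± 1.94 (SD, n = 2), with a log2 fold change of 0.46 (edgeR adjusted p = 0.912). TRBV30 averaged 1.92% ± 3.24 (SD, n = 3) and 0.788% ± 1.11 (SD, n = 2), with a log2 fold change of 1.29 (edgeR adjusted p = 0.878). In all 3 segments the libraries of the 2 groups overlapped. By clonotypes the log2 fold changes were -0.63 for TRBV26, -0.73 for TRBV30 and 0.66 for TRBV31 (edgeR adjusted p = 0.686 each). The members therefore gave 0 calls, against 0% called among the 23 segments tested by reads and among the 21 tested by clonotypes; 4 and 1 of all segments had an unadjusted p under 0.05. DESeq2, the other tool run, called 4 segments by reads and 0 by clonotypes, and no member in either. Without the mismatched clonotypes 3 dermal TRBV30 reads remained, and its log2 fold change was 9.21 by reads (edgeR adjusted p = 0.303) and turned to 1.89 by clonotypes. With all clonotypes and without epidermal A, the change by reads turned to -3.93. Without dermal B that of TRBV26 turned to 1.19 and that of TRBV31 to -0.54, and without epidermal B that of TRBV31 to -0.73.

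Counted against the shorter of its 2 annotated ends, TRBV31 was trimmed less than the other segments in lymph node. Losses against the longer end were not counted. Among clonotypes with the germline start, 568 of 1494 TRBV31 clonotypes kept all 14 germline V bases, a share of 38.0% (Wilson 95% interval 35.6 to 40.5%). The share was 9.07% for TRBV26 (40 of 441, 6.73 to 12.1%) and 16.7% for TRBV30 (10 of 60, 9.31 to 28.0%). The interval of TRBV31 did not overlap the others, within 1 library and without a test. Mean losses were 1.85 bases for TRBV31, 2.80 for TRBV30 and 3.75 for TRBV26. An inserted base that repeats the germline counts as kept, so these losses are minimum values. The same order of TRBV31 and TRBV26 held in skin, summed over libraries after near-identical clonotypes were merged. There 36 of 75 TRBV31 clonotypes (48.0%) and 1 of 54 TRBV26 clonotypes (1.85%) kept the full V end. Clonotypes shared between libraries of a set can count more than once in these sums, so no interval is given. The order within single skin libraries was not examined.

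**Figure D3:**
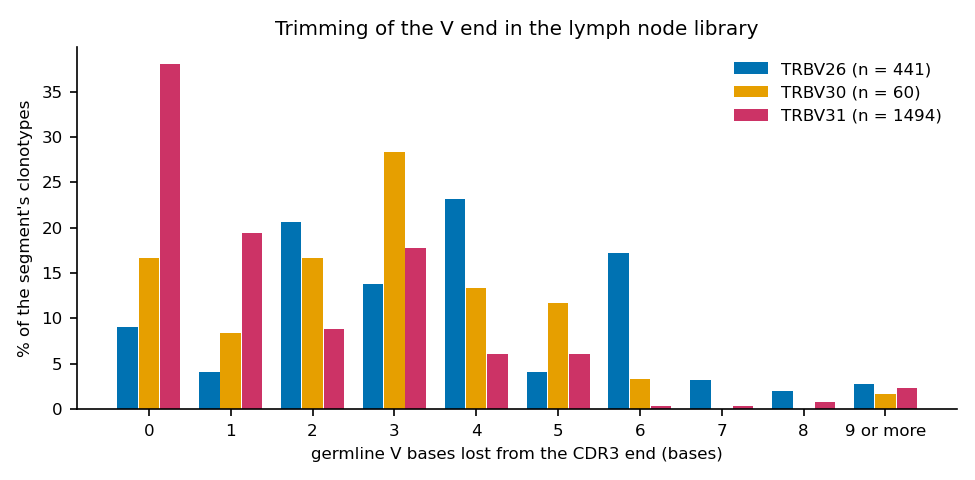
Percentage of each segment's lymph node clonotypes by the number of germline V bases lost from the CDR3 end, for TRBV26 (n = 441), TRBV30 (n = 60) and TRBV31 (n = 1494). TRBV31 peaks at 0 bases lost (38.0%), while TRBV26 peaks at 4 (23.1%) and TRBV30 at 3 (28.3%).

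The base that followed an untrimmed V end also differed between segments. After the 568 untrimmed TRBV31 ends, the next base was A in 60.4%, C in 15.7%, G in 15.7% and T in 8.27%. After the 40 untrimmed TRBV26 ends it was G in 57.5% and A in 7.50%. In TRBV31 and TRBV26 the most frequent base was the complement of the last germline base, T in TRBV31 and C in TRBV26. TRBV30, whose last germline base is A, showed no such base: A, G and T each followed 3 of its 10 untrimmed ends. Both D segments begin with G, the most frequent base after TRBV26. As background, an untrimmed end can keep palindromic (P) nucleotides, which begin with the complement of its last base. Whether the bases counted here are P nucleotides was not tested. For TRBV31, whether they belong to its longer annotated end was not tested either. The leading WT TRBV31 clone, for example, held 2 inserted bases by germline matches and 0 by the deposited positions.

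Within libraries, TRBV31 junctions were compared with the pooled TRBV26 and TRBV30 junctions in the 7 libraries that held at least 3 clonotypes of each kind. An exact two-sided sign-flip permutation test over libraries, which cannot go below p = 0.0156, was run on 5 measures, and p-values were adjusted over these 5 (Benjamini-Hochberg). No measure passed the adjusted threshold of 0.05.

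TRBV31 used TRBJ1 in a smaller share of clonotypes than TRBV26 and TRBV30 in 5 of the 6 skin libraries compared, a difference that did not pass the test. In epidermal A, 0 of 9 TRBV31 clonotypes and 5 of 24 of the others used TRBJ1. In epidermal B neither group used it (0 of 25 and 0 of 12), where 22.9% of the clonotypes of all other TRBV segments did. In dermal A the TRBJ1 shares were 33.3% for TRBV31 and 44.4% for the others, and in WT dermis 28.0 and 50%. In the CD103+ library they were 9.09 and 29.6%, and in the CD103hi library 13.3 and 16.7%. In lymph node they were equal within counting error, at 33.5% (Wilson 95% interval 31.2 to 35.9%) and 33.1% (29.2 to 37.3%). The mean difference over libraries was -11.1 ± 10.2 percentage points (SD, n = 7; exact sign-flip p = 0.0625, adjusted 0.130), lower in 5 libraries, higher in 1 and equal in 1. It was -4.99 ± 31.3 when clonotypes were weighted by reads, where dermal A turned (53.2% for TRBV31 and 0.840% for the others). Against TRBV30 alone, in 4 libraries, it was -0.14. Without clonotypes off the germline start, against TRBV26 and TRBV30, it was -11.2. A count of 0 of 9 allowed a share of up to 33.3% and 0 of 25 up to 12%. The limit of 12% takes all 25 clonotypes of epidermal B as separate. Merging near-identical clonotypes left 13, so the limit there is wider. With merging, 23.8% of the clonotypes of all other TRBV segments in epidermal B used TRBJ1.

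Single J segments were spread widely in lymph node, where 12 TRBJ segments occurred with TRBV31 and 11 with TRBV26. TRBJ2-7 led with TRBV26 (20.1% of clonotypes) and TRBV30 (25%), as it did for all other TRBV segments together (18.7%). With TRBV31 the leading J was TRBJ2-1 (14.0%), and TRBJ2-7 took 13.5% (Wilson 95% intervals 12.3 to 15.8% and 11.9 to 15.3%). In skin, TRBJ2-5 took 13 of 25 TRBV31 clonotypes in epidermal B, TRBJ2-1 took 8 of 22 in the CD103+ library and TRBJ2-7 took 10 of 25 in WT dermis. Some of these are near-identical versions of 1 clone, since merging reduced the skin members from 220 to 158 clonotypes, and TRBV31 in epidermal B from 25 to 13.

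By D calls, TRBV31 was listed with TRBD2 more often than the other segments in lymph node. Among TRBJ2 clonotypes with a D call, where either D segment can occur, TRBD1 took 39.0% for TRBV31 (286 of 734, Wilson 95% interval 35.5 to 42.5%). It took 59.1% for TRBV26 (110 of 186, 52.0 to 65.9%) and 71.1% for TRBV30 (27 of 38, 55.2 to 83.0%). All other TRBV segments together lay between, at 47.1% (46.2 to 47.9%). The TRBV31 and TRBV26 intervals lay on either side of it and did not overlap it. With D segments called from the longest germline match, the lymph node shares were 34.4% for TRBV31 and 57.6% for TRBV26 and TRBV30 together.

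In skin the same share rested on few clonotypes. TRBD1 took 20, 30.0 and 25% of TRBV31 clonotypes in epidermal A, epidermal B and dermal A, from 5, 20 and 4 clonotypes. It took 58.3, 25 and 71.4% of the others, from 12, 8 and 7. In the CD103+, CD103hi and WT dermal libraries it took 37.5, 25 and 35.7% for TRBV31 and 20, 60 and 100% for the others. TRBV31 was lower in 5 of 7 libraries and higher in epidermal B and the CD103+ library. The mean difference was -26.2 ± 28.8 percentage points (SD, n = 7; exact sign-flip p = 0.0781, adjusted 0.130). Without clonotypes off the germline start it was -26.4. Against all other TRBV segments it was -8.16 (exact sign-flip p = 0.0625, adjusted 0.130). With at least 10 clonotypes in each group only the CD103+ and lymph node libraries remained, and the mean difference was -2.35. The WT share of 100% rested on 8 clonotypes, and by germline matches only 2 TRBJ2 clonotypes there could be given a single D segment.

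TRBD2 calls with TRBJ1 gauge the error of D calls, because TRBD2 lies downstream of the TRBJ1 cluster. In lymph node, 34 of 265 TRBV31 clonotypes with TRBJ1 and a D call were listed with TRBD2 (12.8%), against 3 of 85 for TRBV26 and TRBV30 (3.53%) and 7.83% for all other segments. With D called from germline matches these shares were 11.1, 5.95 and 7.66%. Both counts were highest for TRBV31, and the part of such calls in its TRBD2 share among TRBJ2 clonotypes was not tested. In the lymph node members with both calls, the deposited D differed from the longest germline match in 39 of 1150. One of these was the lymph node TRBV31 clone with TRBJ2-1 printed with the leading clones, listed with TRBD1, whose junction matched 9 bases of TRBD2.

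**Figure D4:**
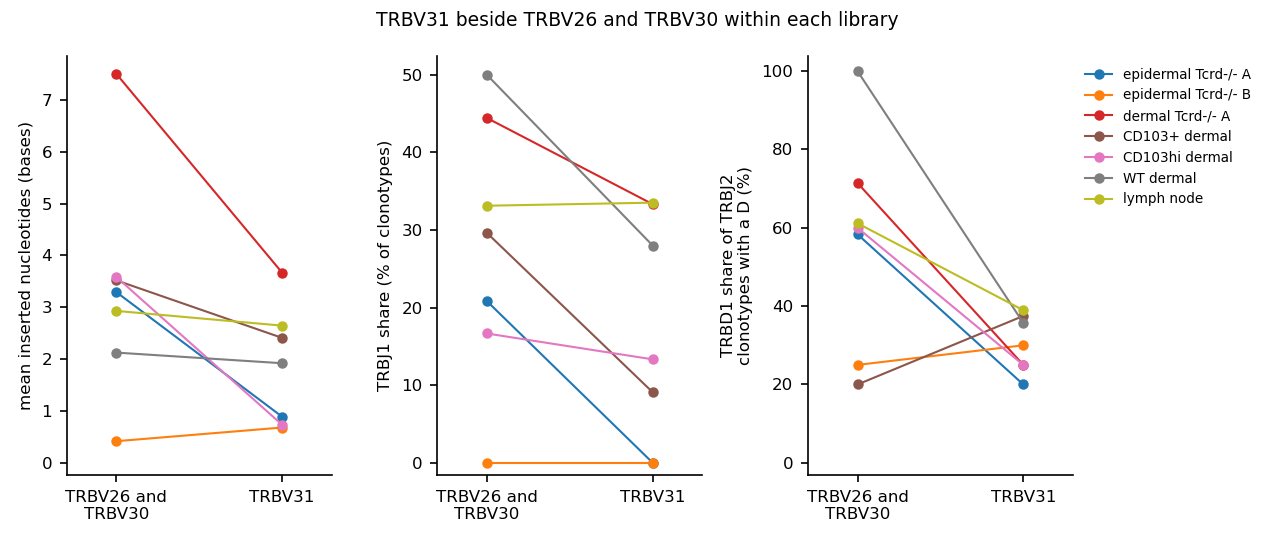
Mean inserted nucleotides per clonotype (left), percentage of clonotypes using TRBJ1 (middle) and percentage of TRBJ2 clonotypes with a D call that carry TRBD1 (right), for TRBV26 and TRBV30 pooled and for TRBV31; each line is 1 of 7 libraries. TRBV31 lies lower in 6, 5 and 5 of the 7 libraries, and no measure passes the adjusted threshold.

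TRBV31 had fewer inserted nucleotides on average than the other segments by the deposited positions. The amount and the split of libraries depended on the clonotypes and positions used. By the deposited positions, TRBV31 averaged 0.889, 0.680 and 3.67 inserted nucleotides in epidermal A, epidermal B and dermal A, and the others 3.29, 0.417 and 7.50. In the CD103+, CD103hi, WT dermal and lymph node libraries the values were 2.41, 0.733, 1.92 and 2.64 for TRBV31 and 3.52, 3.58, 2.12 and 2.93 for the others. The mean difference was -1.49 ± 1.55 nucleotides (SD, n = 7; exact sign-flip p = 0.0469, adjusted 0.130), lower in 6 of 7 libraries. Without clonotypes off the germline start it was -0.25 (exact sign-flip p = 0.609, adjusted 0.719), and against TRBV26 alone -0.11. In each of these settings TRBV31 was lower in 4 libraries and higher in 3. Counted from germline matches after merging near-identical clonotypes it was -3.04 (exact sign-flip p = 0.0312, adjusted 0.156), lower in 6 of 7 libraries. This last count included the clonotypes off the germline start, and how much of the difference rests on them was not tested. Its largest difference, -9.62, was in dermal A, where most TRBV30 clonotypes lacked that start. In lymph node the difference was 0.0516.

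By the deposited positions, the share of clonotypes without inserted nucleotides was higher for TRBV31 in 6 of 7 libraries, by a mean of 9.11 ± 22.6 percentage points (SD, n = 7; exact sign-flip p = 0.391, adjusted 0.488). The CD103hi library stood out, with 11 of 15 TRBV31 clonotypes (73.3%, Wilson 95% interval 48.0 to 89.1%) against 2 of 12 of the others (16.7%, 4.70 to 44.8%). Without that library the mean difference was 1.18. In lymph node the shares were 21.8 and 18.7%. Against TRBV26 alone, TRBV31 was higher in 3 libraries and lower in 3. Against TRBV26 and TRBV30 without clonotypes off the germline start, TRBV31 was higher in 5 libraries and lower in 2. The mean difference was then below 9.11 (exact sign-flip p = 0.609, adjusted 0.719). Counted from germline matches after merging, TRBV31 was higher in 2 libraries and lower in 4, with shares of 33.3 and 52.6% in epidermal A, 44.4 and 0% in the CD103hi library and 7.13 and 7.50% in lymph node.

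CDR3 length did not order the segments the same way in all libraries. TRBV31 averaged 13.3, 12.8 and 14.7 amino acids in epidermal A, epidermal B and dermal A, and the others 12.1, 11.8 and 13.6. In the CD103hi library TRBV31 was shorter, at 11.5 against 13.5. In lymph node TRBV31, TRBV26 and TRBV30 averaged 13.6, 13.6 and 12.6 amino acids. The mean difference over libraries was 0.261 ± 1.15 (SD, n = 7; exact sign-flip p = 0.578, adjusted 0.578). Without 1 library it ranged from 0.0966 (without epidermal A) to 0.633 (without the CD103hi library). Against TRBV30 alone it was 1.22, in 4 libraries, and against all other TRBV segments -0.34. Without clonotypes off the germline start the difference from TRBV26 and TRBV30 was 0.166.

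Taken as one group and by the deposited positions, the members had more junctions without inserted nucleotides in each epidermal library than in either dermal Tcrd-/- library. The share was 60.6% in epidermal A, 70.3% in epidermal B, 50% in epidermal C, 11.1% in dermal A and 0% in dermal B. The point values did not overlap, but epidermal C held 2 and dermal B 4 member clonotypes. Epidermal libraries averaged 60.3% ± 10.1 (SD, n = 3) against 5.56% ± 7.86 (SD, n = 2) for dermal ones. The exact two-sided permutation p was 0.2, which 3 libraries against 2 cannot go below, and 0.3 after adjustment over 3 measures. Without clonotypes off the germline start the difference of 54.7 percentage points became 54.5, and without epidermal C and dermal B it was 54.3. The CD103+ library had 32.7%, the CD103hi library 48.1%, WT dermis 43.9% and lymph node 21.1%. Counting both CD103 sorts as dermal gave a difference of 37.3 percentage points (exact permutation p = 0.0571, adjusted 0.171). Counted from germline matches after merging, the share was 46.4% in epidermal A, 45.5% in epidermal B, 0% in epidermal C, 8.70% in dermal A and 0% in dermal B. The groups then overlapped, and the difference was 26.3 percentage points (exact permutation p = 0.6, adjusted 0.900). On that count the CD103+ library had 31.4%, the CD103hi library 23.5%, WT dermis 11.1% and lymph node 7.22%. By the deposited positions, clonotypes of all other TRBV segments had shares of 44.6, 44.2 and 37.1% in epidermis and 19.2 and 19.2% in dermis.

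The mean length of member junctions was lower in each epidermal library than in either dermal Tcrd-/- library. Mean CDR3 length was 12.4 amino acids in epidermal A, 12.5 in epidermal B and 12 in epidermal C, against 13.9 in dermal A and 13.25 in dermal B, with no overlap. The difference was -1.28 amino acids (exact permutation p = 0.2, adjusted 0.3), and -1.45 without clonotypes off the germline start. The CD103hi library, at 12.4, lay with the epidermal values, and the CD103+ library was at 13.3, WT dermis at 13.0 and lymph node at 13.6. All other TRBV segments showed the same order, at 13.3, 13.1 and 13.1 in epidermis and 14.1 and 13.9 in dermis. The TRBJ1 share gave no such order, at 15.2, 0 and 50% in epidermis and 40.7 and 0% in dermis (exact permutation p = 1).

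**Figure D5:**
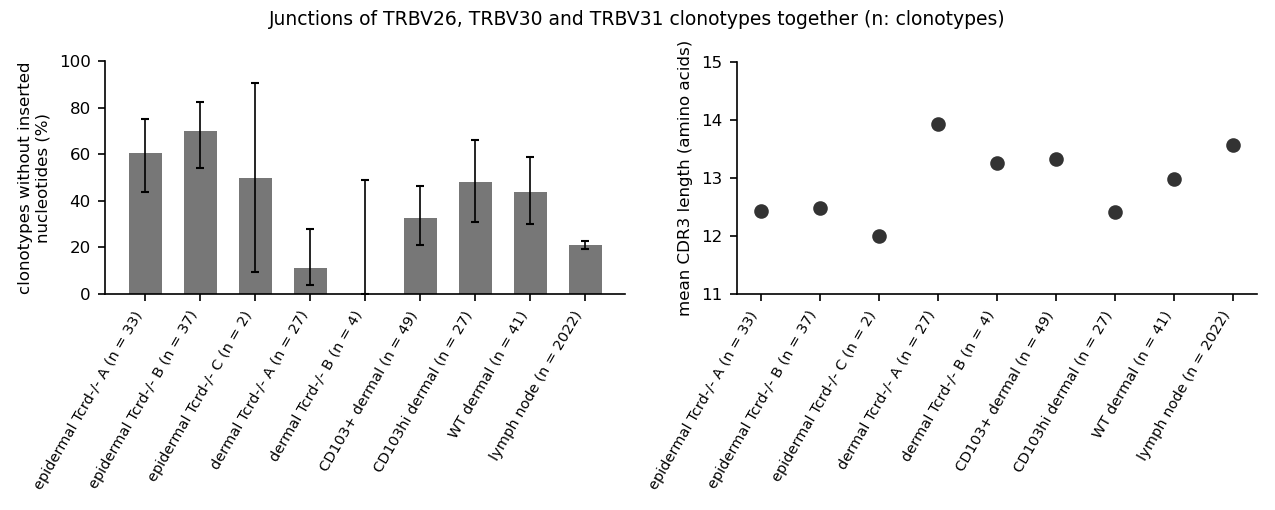
TRBV26, TRBV30 and TRBV31 clonotypes together: percentage without inserted nucleotides by the deposited positions (left, error bars are Wilson 95% intervals) and mean CDR3 length in amino acids (right, axis not starting at 0) in each of the 9 libraries, with the number of clonotypes after each name. The 3 epidermal libraries lie at 50 to 70.3% and 12 to 12.5 amino acids, the dermal Tcrd-/- libraries at 0 and 11.1% and at 13.25 and 13.9.

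The residues DWG (aspartate, tryptophan, glycine), which TRBD2 encodes in one reading frame, recurred among members of epidermal A and B. They were present in 6 of 33 member clonotypes of epidermal A and 12 of 37 of epidermal B, and in 0 of 2 of epidermal C, 0 of 27 of dermal A and 0 of 4 of dermal B. The CD103+ library had 7 of 49, the CD103hi library 1 of 27, WT dermis 3 of 41 and lymph node 73 of 2022. All other TRBV segments held DWG in 10.2, 13.3 and 7.14% of clonotypes in epidermal A, B and C. For them dermal A had 6.25%, dermal B 5.48%, the CD103+ library 3.84% and the CD103hi library 14.9%. WT dermis had 6.96% and lymph node 4.35%. The largest TRBV31 clone of epidermal B, at 0.983% of reads, held DWG. The 12 of epidermal B include near-identical versions of the same clones. With these merged, TRBV31 in epidermal B had 3 of 13 (23.1%, Wilson 95% interval 8.18 to 50.3%), against 13.7% for all other TRBV segments there. TRBV26 then had 2 of 8 and TRBV30 0 of 1. In lymph node 4.29% of TRBV31 clonotypes (65 of 1515) held DWG, beside 4.35% for all other TRBV segments. For TRBV26 the share was 1.35% (6 of 443). This motif was chosen after the leading clones had been seen.

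Members were shared between skin libraries within a library set only. Over the 21 pairs of skin libraries from different sets, 0 combinations of V, J and amino acid CDR3 were shared. Sharing was counted for the members only, so whether it is particular to these segments cannot be told. Over the 7 pairs within a set, 0 to 12 were shared, most of them between epidermal B and the CD103+ library. Those 12 made up 7.49% of epidermal B reads and 0.0350% of CD103+ reads, and all were identical in nucleotides. Epidermal A and dermal A shared 3, which made up 7.58% of epidermal A and 1.56% of dermal A reads. Whether such sharing reflects the mice or the handling of a set cannot be told apart here. Across sets, 3 members of skin were also found in lymph node, each once there with 1 read. All 3 used TRBV31, the segment of 1515 of the 2022 lymph node members. The largest was the CD103hi clone with TRBJ2-5 printed with the leading clones, and the others, both with TRBJ2-7, had 0.278% of reads in WT dermis and 1 read in epidermal B.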

How the data were processed

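Per the labels' protocols, Tcrb transcripts of the sorted cells were amplified by 5′ RACE and PCR and read on an Illumina MiSeq. No aligner, clonotype caller, error correction or build is named (not given in the sources used here). Each library had 31823 to 189162 reads. The authors' deposited tables hold a whole-number read count per clonotype. Each also has a deposited fraction, its count over all reads of the table. Per the file headers, the tables also give the V, D and J segments and the CDR3 positions where each ends or starts. Inserted nucleotides were the CDR3 bases that those positions assigned to no segment. The γ chain library of WT epidermis was not used.

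Members, lists and measures were chosen with earlier results of these data known. Members came from the deposited V call. The named segments were the 2 with the smallest mean absolute difference in percent of clonotypes, and printed clones were the largest member in each skin library with one at 1% of reads or more and the largest of each segment in lymph node. Segment counts were tested over all TRBV segments with at least 10 counts, in the epidermal (n = 3) and dermal (n = 2) Tcrd-/- libraries, with edgeR 4.0.16 in R 4.3.3 (quasi-likelihood, older version of the fit, common dispersion, library totals, no TMM factor, no abundance trend). The trend was switched off after both fits had been seen, to match the way the series had been processed before. DESeq2 1.42.0 was the alternative. Permutation tests were exact over libraries, and in the comparison of 3 with 2 libraries p was the smaller one-sided value doubled. Germline sequences came from GENCODE transcripts of GRCm38, and only names, sequences and positions of that annotation were used. A clonotype was off the germline start when at least 2 of its first 9 CDR3 bases differed. Near-identical clonotypes were merged into one of the same library, V, J and length with at least 10 times the reads and at most 2 base differences. A clonotype was called a trace when its share was below 1% of its share elsewhere in the set. Alternatives covered normalization, filters, blocks, left-out libraries, reference segments and junction positions. The tests were checked on simulated data.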

Additional observations from a re-analysis of the deposited data

How the results depend on the processing

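Under the alternatives run, no member passed an adjusted p of 0.05 in the 97 of 98 fold changes that had a p (DESeq2 gave none for TRBV30 by reads). No junction measure passed in the 92 of 149 values whose test could go under 0.05; the other values, all of epidermal against dermal among them, could not. All TRBV segments called by reads numbered 4 with DESeq2 and 2 with the default edgeR abundance trend, against 0. By reads, TRBV26 turned from -0.68 to 0.44 with the replicate block (TRBV30 4.15, TRBV31 5.25) and was -5.38 with the library set as a block, with a range of -1.47 to 1.19 when 1 library was left out. TRBV30 (1.29) was -0.070 with DESeq2 and ranged from -3.93 to 1.87. TRBV31 (0.46) was -0.080 with both CD103 sorts in the dermal group and -0.90 with DESeq2, and ranged from -0.73 to 1.04. By clonotypes, TRBV30 (-0.73) was 0.45 with the CD103 sorts and 1.89 without clonotypes off the germline start. Fold changes of TRBV30 and TRBV31 without dermal A are not given, because dermal B held neither. TRBV31's CDR3 length difference (0.261) was -0.11 with at least 10 clonotypes per arm and -0.34 against all other TRBV segments. The TRBJ1 share of the members, epidermal minus dermal (1.35), was -12.8 with the replicate block, -2.83 without clonotypes off the germline start and -33.2 without dermal B and epidermal C, and ranged from -19.0 to 21.7 when 1 library was left out. The cause was not tested. The settings on the germline start, merging, the abundance trend and the paired removal of dermal B and epidermal C were chosen after seeing the data, as was counting junctions from germline sequences after merging. The last moved TRBV31's difference in the share without inserted nucleotides from 9.11 to 1.03 and the epidermal minus dermal difference from 54.7 to 26.3. Only the letters A and B occur in both groups, and deviations of segment shares from the group means correlated at 0.137 (A) and 0.242 (B) over 26 segments, so the letters were not taken as pairs; the block called 0 segments by reads and 0 by clonotypes. Epidermal C (2 member clonotypes) and dermal B (4) limit every comparison of the 2 groups.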
